A study of Mus musculus with 8 samples.

Results

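The genes described here are the collagen chain genes of the mouse parietal bone, which roofs the skull. They were chosen by symbol alone (Col, digits, a, digits, nothing after), which matched 44 of the 27133 rows of the count table. All 44 had counts, and 43 passed the filter on low counts. The gene left out was Col4a6, at 0 to 10 counts per library. C57BL/6J pups in 2 groups were compared, with 4 libraries each: pups given an isotype control antibody and pups given an antibody that blocks CSF1R, the receptor that monocytes, macrophages and osteoclasts depend on. Both groups were dosed across the skull at postnatal days 2, 4 and 6, and bone was collected from perfused pups at postnatal day 9. The libraries carry the numbers of their titles, isotype 2, 3, 4 and 5 and anti-CSF1R 7, 8, 9 and 10, and per-library values follow that order throughout. Whether each library is a separate pup is not given in the labels, so the p-values reflect only how much these libraries vary, which may be technical.

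Collagens are secreted or membrane proteins in which 3 chains wind into a triple helix. The helix needs glycine, the smallest residue, at every turn where the chains meet, so a collagen domain is a long series of repeats of glycine and 2 other residues. Fibrillar collagens form the fibres of bone, tendon and skin, and type I collagen, laid down by osteoblasts and then mineralized, is the main protein of bone. FACIT collagens (fibril-associated collagens with interrupted triple helices) sit on the surface of those fibres. Type IV collagen forms the sheet of basement membranes, type VI forms beaded filaments around cells, and transmembrane collagens are anchored in the cell surface. Types II, IX, X and XI are the collagens of cartilage, although bone cells also express type XI. Osteoclasts, the cells that CSF1R blockade is meant to deplete with other myeloid cells, digest type I collagen with cathepsin K.

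The repeats could be read in the coding sequences of GENCODE M21 (GRCm38). Counting codons for glycine (GGN) that recur at each 3rd codon without a break, the longest run was 216 to 344 repeats in the 11 fibrillar chains (median 338). It was 32 to 113 in the FACIT, 30 to 75 in the basement membrane, 28 to 87 in the beaded and 40 to 56 in the transmembrane chains, ranges that overlap one another and lie below the fibrillar one. Col1a1 had 338 repeats in its longest run and Col4a1 40, with 18 separate runs of at least 10 repeats in Col4a1 and 2 in Col1a1. The end of the longest run is shown for 1 or 2 chains of several classes, because the repeat is the feature that these genes share. Each line holds the last 12 codons of that run and the 8 codons after it, with every GGN codon in capitals.
Col1a1: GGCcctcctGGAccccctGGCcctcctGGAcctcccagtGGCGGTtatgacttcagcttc
Col2a1: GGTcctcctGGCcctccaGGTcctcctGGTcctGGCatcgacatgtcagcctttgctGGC
Col4a1: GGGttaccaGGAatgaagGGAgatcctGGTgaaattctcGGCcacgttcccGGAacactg
Col6a1: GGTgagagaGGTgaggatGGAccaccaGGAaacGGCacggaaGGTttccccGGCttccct
Col9a1: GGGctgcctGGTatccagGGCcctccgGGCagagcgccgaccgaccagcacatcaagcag
Col23a1: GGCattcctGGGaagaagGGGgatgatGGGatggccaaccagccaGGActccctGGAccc
In the fibrillar chains Col1a1 and Col2a1 the run ended where the helix gives way to the end of the chain, at codons 1181 and 1217 of 1454 and 1488. In Col4a1 and Col6a1 glycine codons resumed within the window after a break, at a shifted spacing. Codons for glycine and proline, the common residues of the repeat, are rich in G and C. The median GC content of the tested collagen transcripts was 55.2%, against 49.9% for all tested genes with a GENCODE M21 transcript.

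Total counts ran from 57.5 to 69.1 M per library, and the detection floor used here, 3 counts (counting error only), equalled 0.0396 to 0.0573 CPM (CPM is a gene's count relative to its library's total, scaled by TMM). Most small counts were even, as when both mates of a read pair are counted. If so, 3 counts stand for fewer than 3 fragments, and this floor is too low. Isotype 3 and 4 stood apart from the other 6 libraries. Across genes they correlated with those 6 at a Spearman rho of 0.916 to 0.943, against 0.986 to 0.997 among the 6. Their mitochondrial share of counts was 0.847% and 0.855%, against 2.03 to 2.80% in the 6. The Spearman correlation between a transcript's GC content and its deviation from the median library was 0.650 and 0.640 in isotype 3 and 4 and -0.372 to -0.0290 elsewhere. Over the 43 collagen genes the difference of isotype 3 and 4 from isotype 2 and 5 also ran with GC content (Spearman correlation 0.508 across genes, as a description). In 17 of the 43 genes isotype 3 and 4 both stood above isotype 2 and 5, and in 10 both stood below. Those counts were made for collagen genes only, with no share over all genes to set beside them. Every comparison is therefore also given with isotype 2 and 5 as the only controls, or with a GC and length offset fitted to each library, where that turns a direction or a call. As a check of the treatment, Csf1r fell to 39.4 to 64.4 CPM from 238 to 549 CPM (edgeR BH-adjusted p = 0.0156). The defining osteoblast genes Runx2, Sp7, Alpl and Bglap were present in every library, at 163 CPM or more with isotype and 333 CPM or more with anti-CSF1R. Both minima are those of Runx2, whose log2 fold change was 0.59, while Sp7, Alpl and Bglap had -0.067, -0.28 and -0.79. Of the 12 osteoblast markers listed, 6 estimates were below 0 and 6 above.

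No collagen gene passed the threshold on all libraries. Of the 43 tested, 0 were lower and 0 higher at an edgeR BH-adjusted p under 0.05, against 0.846% of all 17028 genes, and 16 had an unadjusted p under 0.05. By that looser measure 10 (23.3%) were lower and 6 (14.0%) higher, against 12.6% and 5.26% of all genes. Values of the groups did not overlap in 13 genes: in 9 every anti-CSF1R value was below every isotype value (20.9%, against 8.34% of all genes) and in 4 it was above (9.30%, against 6.61%). In either direction the background is 15.0%. The median log2 fold change of the 43 was -0.13, beside 0.031 for all genes tested, and 28 estimates were below 0, beside 8207 of 17028 over all genes. With library size as the only scaling the sign of the median turned, with 21 of the 43 below 0 and a median of 0.022. The median of all genes was then 0.19, so the collagen median lay below it with either scaling. The 3 estimates farthest from 0 were those of the cartilage genes Col2a1, Col9a3 and Col9a2. The genes with the lowest adjusted p were a pair of sparse transcripts, Col23a1 and Col6a5. Both of these rose when isotype 2 and 5 were the only controls and with the GC and length offset. DESeq2, run on the same 8 libraries, called 4 genes lower (Col2a1, Col9a2, Col9a3 and Col6a6) and the same 2 higher. The background of those counts was 3.69% lower and 0.869% higher with DESeq2. It was 2.38% lower and 0.679% higher against isotype 2 and 5 alone, and 2.16% lower and 0.493% higher with the offset.

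**Figure D1:**
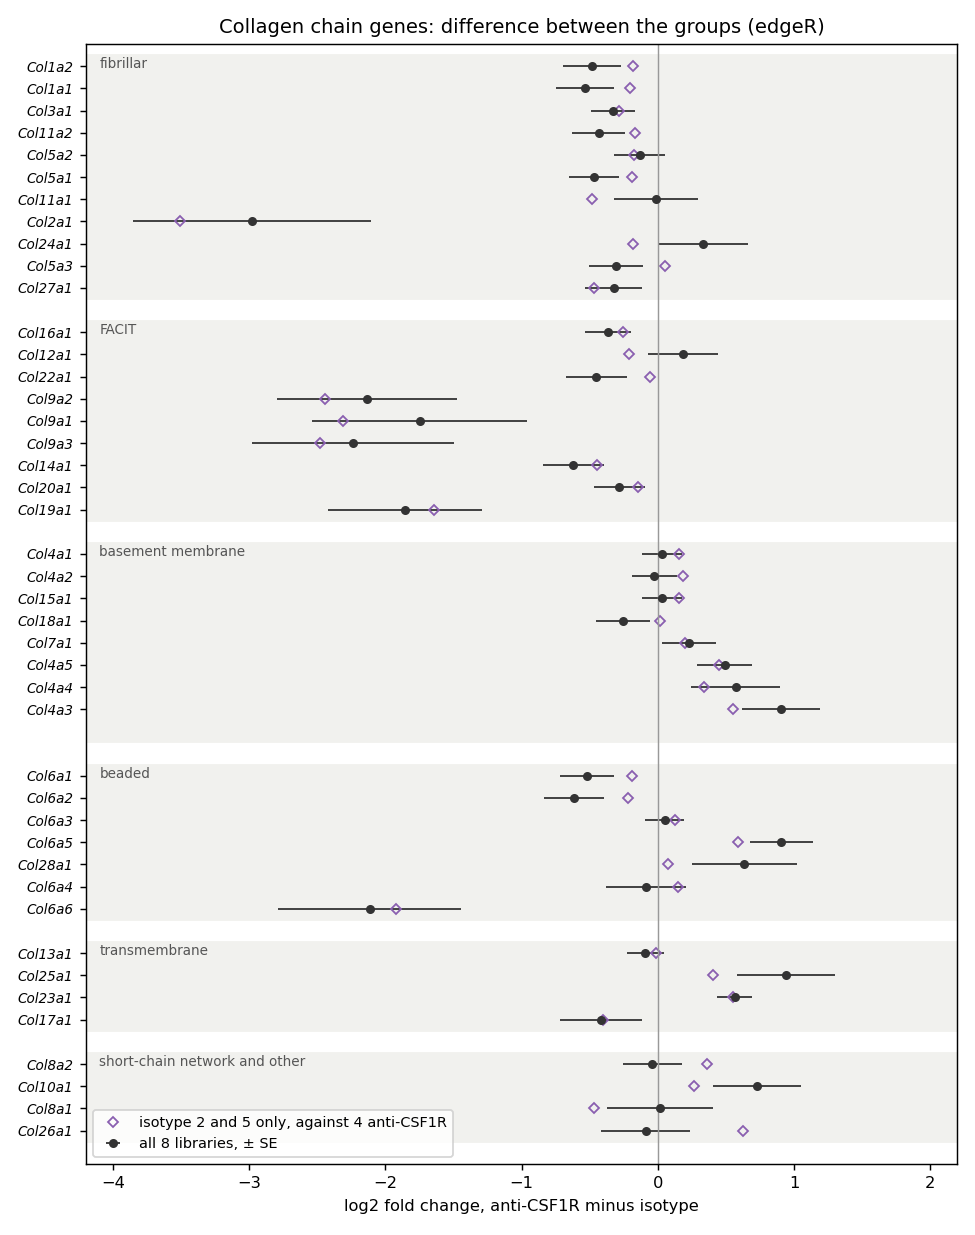
Log2 fold change (anti-CSF1R minus isotype, x axis) of the 43 tested collagen genes by class, from edgeR on all 8 libraries with its SE (filled points and bars) and with isotype 2 and 5 as the only controls (open diamonds). Most points lie within 1 of 0, Col2a1, Col9a1, Col9a2, Col9a3, Col19a1 and Col6a6 lie below -1, and the diamonds of Col1a1, Col1a2, Col6a1 and Col6a2 lie nearer to 0 than their points.

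Type I collagen dominated every library. Col1a1 and Col1a2, which encode its α1 and α2 chains, together took 15.8 to 26.8% of all counts and 83.9 to 89.5% of the collagen counts. Col1a1 measured 104519, 139203, 153394 and 88841 CPM across the isotype libraries, against 90830.5, 73608, 88916 and 82629.5 CPM across the anti-CSF1R libraries. Col1a2 measured 102382, 122491, 140742 and 76451 CPM across the isotype libraries, against 84401, 70744, 82702 and 78504 CPM across the anti-CSF1R libraries. Both were highest in isotype 3 and 4, and isotype 5 lay within the anti-CSF1R range, so the groups overlapped. The log2 fold changes were -0.53 ± 0.21 and -0.48 ± 0.22 (SE; edgeR BH-adjusted p = 0.278 and 0.278). Against isotype 2 and 5 alone they were -0.21 and -0.18 (edgeR BH-adjusted p = 0.570 and 0.659). Levels between genes can be compared only per length. On that scale (CPM per kb of the longest transcript, mean of 8 libraries) Col1a2 and Col1a1 stood at 17727 and 17326, and the next gene, Col3a1, at 1075.

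**Figure D2:**
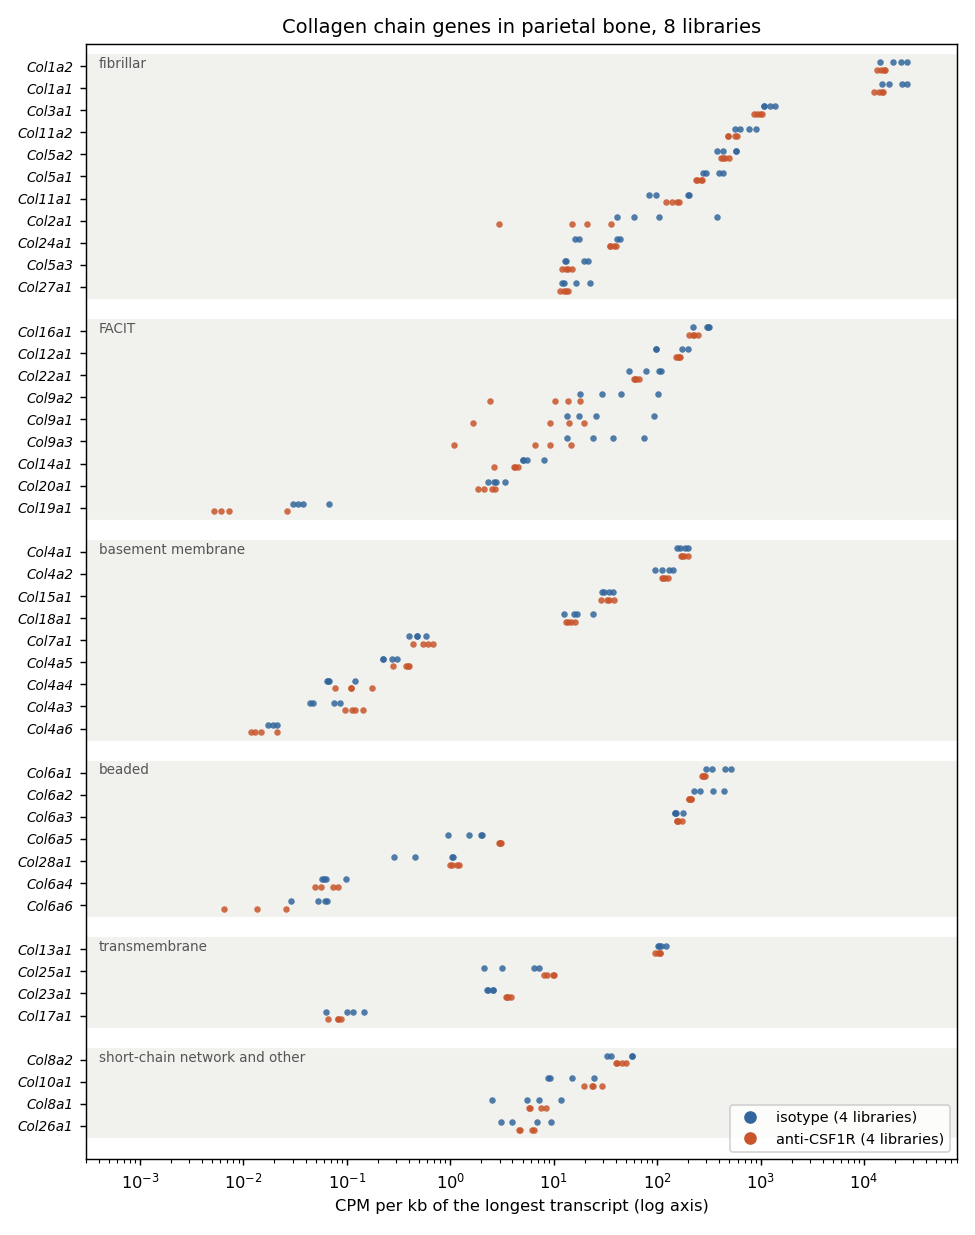
Level of the 44 collagen genes in each library, in CPM per kb of the longest transcript (log axis), by class, with isotype libraries in blue and anti-CSF1R libraries in orange (values of 0 are not drawn). Col1a1 and Col1a2 lie far to the right of all others, with Col3a1 next, while Col4a6, Col6a6 and Col19a1 lie at the far left.

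The start site of Col1a2 (RefSeq, GRCm38.p6, plus strand, chr6:4505368-4505667) is shown as the promoter of the most abundant chain per length. It runs from 250 bases before to 50 bases after the start, and the motif CCAAT, searched on both strands, is in capitals.
Col1a2: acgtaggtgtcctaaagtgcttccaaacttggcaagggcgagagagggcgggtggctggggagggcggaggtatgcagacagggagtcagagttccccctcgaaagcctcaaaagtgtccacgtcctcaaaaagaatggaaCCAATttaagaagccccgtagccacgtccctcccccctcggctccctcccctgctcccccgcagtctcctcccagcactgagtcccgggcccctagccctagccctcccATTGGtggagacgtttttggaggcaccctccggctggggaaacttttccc
The motif was present 2 times in this window, and in 13 of the 35 collagen genes with a promoter in the RefSeq table (37.1%), beside 41.1% of all genes in it.

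Among the minor fibrillar chains, which join type I collagen in mixed fibrils and set their width, Col3a1 and Col5a1 were lower in all 4 anti-CSF1R libraries. Col3a1, the type III chain of soft connective tissue and vessel walls, measured 6044, 6042, 7707 and 6867 CPM across the isotype libraries, against 5491, 5102, 5756 and 4845 CPM across the anti-CSF1R libraries. Its groups were close, with isotype 2 and 3 at the bottom of the isotype range and anti-CSF1R 9 just under them (log2 fold change -0.33 ± 0.16 (SE), edgeR BH-adjusted p = 0.282). Col5a1, a type V chain that starts fibril assembly, stood at 2342 to 3641 CPM with isotype and 2006 to 2269 CPM with anti-CSF1R, and isotype 3 and 4 again were the highest (log2 fold change -0.47 ± 0.19 (SE), edgeR BH-adjusted p = 0.278). Its partner Col5a2 stood at 2519.6 to 3868 CPM with isotype and 2761 to 3274 CPM with anti-CSF1R, with the groups overlapping (log2 fold change -0.13 ± 0.19 (SE), edgeR BH-adjusted p = 0.613). Isotype 3 was the lowest library for Col5a2 and the highest but 1 for Col5a1. Against isotype 2 and 5 alone the log2 fold changes of Col3a1, Col5a1 and Col5a2 were -0.29, -0.19 and -0.18, with BH-adjusted p of 0.225, 0.362 and 0.590 by edgeR. The remaining type V gene, Col5a3, stood at 78.2 to 132 CPM with isotype and 74.4 to 91.5 CPM with anti-CSF1R.

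Col24a1 and Col27a1 encode fibrillar chains with shorter, interrupted helices, type XXIV being a bone collagen of mature osteoblasts. Col24a1 measured 310.2, 115, 126 and 291 CPM across the isotype libraries, against 285, 248, 277 and 252 CPM across the anti-CSF1R libraries. Isotype 3 and 4 were the low pair here, below all 6 others, and its estimate of 0.33 turned to -0.18 against isotype 2 and 5 alone (edgeR BH-adjusted p = 0.469 and 0.304). Col27a1 stood at 92.2 to 171 CPM with isotype and 86.8 to 105 CPM with anti-CSF1R, highest in isotype 5. Over all 11 fibrillar genes 10 estimates were below 0, with a median of -0.33, and -0.19 against isotype 2 and 5 alone. With library size as the only scaling, 8 of the 11 were below 0 and the median was -0.19.

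The FACIT chains ranged widely in level. Col16a1 and Col12a1 were the most abundant per length, at 258 and 151 CPM per kb. Col16a1 measured 1167, 1585, 1656 and 1629 CPM across the isotype libraries, against 1194, 1145, 1294 and 1061 CPM across the anti-CSF1R libraries. Isotype 2 lay within the anti-CSF1R range and the other 3 isotype libraries above it (log2 fold change -0.36 ± 0.17 (SE), edgeR BH-adjusted p = 0.278). Col12a1, whose chain links fibrils in dense connective tissue and periosteum, measured 2005, 1116, 1120.5 and 2274 CPM across the isotype libraries, against 1937, 1868, 1845 and 1743 CPM across the anti-CSF1R libraries. Isotype 3 and 4 were below all others and isotype 2 and 5 above all anti-CSF1R libraries, and its estimate of 0.18 turned to -0.21 against isotype 2 and 5 alone and -0.10 with the offset (edgeR BH-adjusted p = 0.610, 0.291 and 0.597). Col22a1, a collagen of tissue junctions, stood at 472 to 964 CPM with isotype and 525 to 593 CPM with anti-CSF1R, lowest of all in isotype 5 and highest in isotype 3 and 4. Col14a1, a FACIT of tendon and other soft fibrous tissue, was lower in all 4 anti-CSF1R libraries, at 32.4 to 52.6 CPM with isotype and 17.1 to 29.2 CPM with anti-CSF1R (log2 fold change -0.62 ± 0.23 (SE), edgeR BH-adjusted p = 0.277). Without isotype 4, the highest library, its log2 fold change was -0.44. Col20a1 stood at 11.6 to 17.1 CPM with isotype and 9.26 to 13.5 CPM with anti-CSF1R. Col19a1 was near the detection floor, at 0.165 to 0.363 CPM with isotype and 0.0283 to 0.144 CPM with anti-CSF1R, and its groups did not overlap (log2 fold change -1.86 ± 0.57 (SE), edgeR BH-adjusted p = 0.217). Col19a1 counts were 10 to 19 per isotype library and 2 to 10 per anti-CSF1R library. Of the 9 FACIT estimates 8 were below 0, with a median of -0.62, and -0.45 against isotype 2 and 5 alone, when all 9 were below 0.

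The largest estimates belonged to collagens of hyaline cartilage, and these also varied widely within each group. Col2a1, the chain of type II collagen, measured 210.3, 305, 531 and 1951 CPM across the isotype libraries, against 182, 107, 76.1 and 15.1 CPM across the anti-CSF1R libraries. Isotype 5 was 9.27 times isotype 2, anti-CSF1R 7 was likewise far above anti-CSF1R 10, and the gap between the groups, from isotype 2 to anti-CSF1R 7, was small beside both. Its log2 fold change was -2.98 ± 0.88 (SE, edgeR BH-adjusted p = 0.199). The 3 chains of type IX collagen, which coats type II fibrils, ran alongside. Col9a2 measured 53.0, 85.2, 132 and 299 CPM across the isotype libraries, against 52.3, 40.1, 29.9 and 7.13 CPM across the anti-CSF1R libraries. Its groups did not overlap, with isotype 2 just above anti-CSF1R 7 (log2 fold change -2.14 ± 0.66 (SE), edgeR BH-adjusted p = 0.226). Col9a3 stood at 40.9 to 229 CPM with isotype and 3.32 to 45.1 CPM with anti-CSF1R (log2 fold change -2.24 ± 0.74 (SE), edgeR BH-adjusted p = 0.254). Col9a1 stood at 51.8 to 359 CPM with isotype and 6.40 to 76.1 CPM with anti-CSF1R (log2 fold change -1.75 ± 0.79 (SE), edgeR BH-adjusted p = 0.278). In all 4 genes isotype 5 was the highest library of 8 and anti-CSF1R 10 the lowest. Without isotype 5 the log2 fold changes of Col2a1, Col9a1, Col9a2 and Col9a3 were -1.88, -0.76, -1.47 and -1.65 (edgeR BH-adjusted p = 0.108, 0.369, 0.119 and 0.131). Without anti-CSF1R 10 they were -2.62, -1.39, -1.80 and -1.87 (edgeR BH-adjusted p = 0.373, 0.451, 0.393 and 0.378). DESeq2 called Col2a1, Col9a2 and Col9a3 lower (adjusted p = 0.0326, 0.00928 and 0.0151) and none of the other 18 alternatives called them.

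Chondrocyte markers other than collagens moved with these 4 genes as a sum, but not each marker did. Snorc, Mia and Cytl1 were highest in isotype 3, and Sox9 and Matn3 were lowest in isotype 2 and isotype 3. The summed level of 12 such markers was 166, 286, 344 and 789.8 CPM in isotype 2, 3, 4 and 5 and 186, 149, 126 and 68.5 CPM in anti-CSF1R 7, 8, 9 and 10, and it too was highest in isotype 5 and lowest in anti-CSF1R 10. None of the 12 was at 0 in every library, and all 12 estimates were below 0, beside 8207 of 17028 over all genes. In edgeR 0 passed the threshold, and 8 were lower at an unadjusted p under 0.05, against 12.6% of all genes. Acan, the gene of the main cartilage proteoglycan, stood at 65.6 to 321 CPM with isotype and 32.3 to 71.5 CPM with anti-CSF1R, and Matn1, of a cartilage matrix adaptor protein, at 15.6 to 142 CPM with isotype and 0.297 to 22.3 CPM with anti-CSF1R. Fewer cartilage cells in a sample and less RNA per cell cannot be told apart in bulk libraries, and how much cartilage each sample held was not tested.

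**Figure D3:**
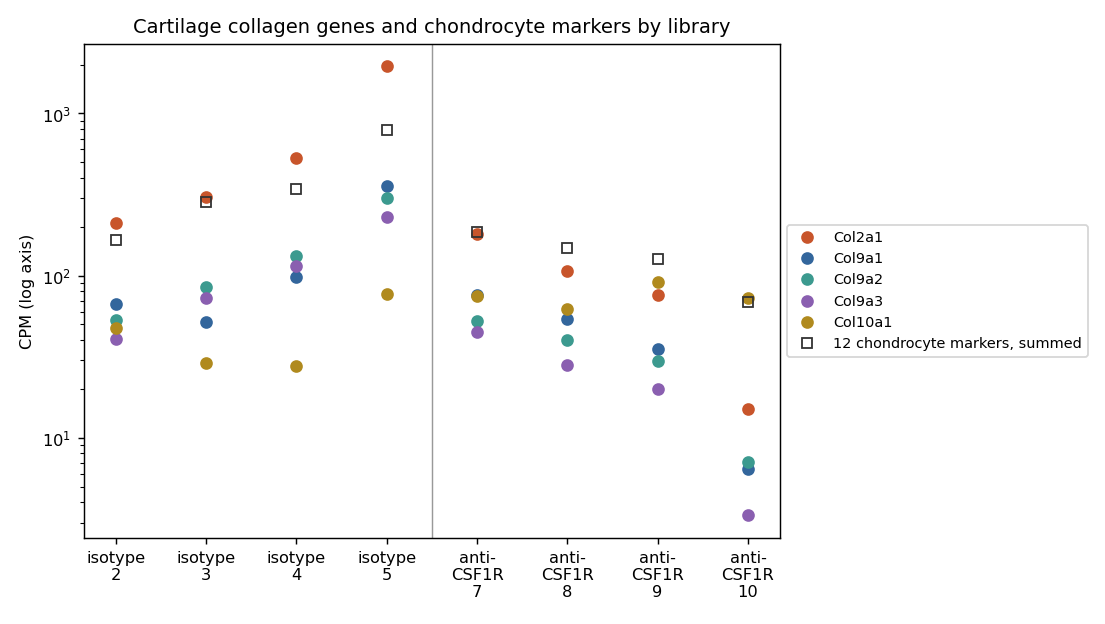
CPM (log axis) of Col2a1, Col9a1, Col9a2, Col9a3 and Col10a1 and the summed CPM of 12 chondrocyte markers (open squares) in each of the 8 libraries. Col2a1, the type IX genes and the marker sum are highest in isotype 5 and lowest in anti-CSF1R 10, and Col10a1 is not.

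The other cartilage genes did not share that order. Col10a1, the collagen of hypertrophic chondrocytes, measured 47.3, 29.0, 27.9 and 77.4 CPM across the isotype libraries, against 74.9, 62.0, 91.4 and 72.9 CPM across the anti-CSF1R libraries. Isotype 5 lay inside the anti-CSF1R range, and isotype 2, 3 and 4 lay below it (log2 fold change 0.73 ± 0.32 (SE), edgeR BH-adjusted p = 0.278). The estimate was 0.27 against isotype 2 and 5 alone. Per length, Col11a2 and Col11a1, the type XI chains, had means of 717 and 146 CPM per kb with isotype, beside 147 for Col2a1. With anti-CSF1R the means were 530.5, 145 and 18.6 CPM per kb. Col11a2 measured 3786, 4717, 5445 and 3390.1 CPM across the isotype libraries, against 3567, 2921, 3403 and 2943 CPM across the anti-CSF1R libraries. Col11a1 measured 1573, 638, 749.6 and 1527 CPM across the isotype libraries, against 1261, 1059, 1180.5 and 944 CPM across the anti-CSF1R libraries. Isotype 3 and 4 were the highest libraries for Col11a2, whose longest transcript has a GC content of 62.9%, and the lowest for Col11a1, at 48.0%. The log2 fold changes of -0.43 and -0.014 (edgeR BH-adjusted p = 0.278 and 0.978) became -0.16 and -0.48 against isotype 2 and 5 alone (0.566 and 0.0516). Of the 7 genes of the cartilage class 6 estimates were below 0, with a median of -1.75, and -2.31 against isotype 2 and 5 alone. In that comparison isotype 5, the highest library for Col2a1 and the type IX genes, weighs more. Isotype 2 lay close to anti-CSF1R 7 in those genes, with Col2a1 at 210 and 182 CPM and Col9a1 at 66.9 and 76.1 CPM.

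Basement membrane collagens had no member past the threshold. Col4a1 and Col4a2, the chains of the type IV network found in all basement membranes, stood at 179 and 119 CPM per kb. Col4a1 measured 1029, 1233, 1304 and 1112 CPM across the isotype libraries, against 1202, 1116, 1157 and 1302 CPM across the anti-CSF1R libraries. Col4a2 measured 621, 918, 840.3 and 717 CPM across the isotype libraries, against 768, 717, 743 and 813 CPM across the anti-CSF1R libraries. The groups overlapped in both, at log2 fold changes of 0.030 ± 0.15 and -0.025 ± 0.16 (SE, edgeR BH-adjusted p = 0.890 and 0.916), and both signs turned in some of the alternatives. A p that misses the threshold does not show that the groups are alike. The 2 genes lie head to head, and their RefSeq promoter windows share 78 bases. That shared stretch is shown because both windows contain it (no base is capitalised; GRCm38.p6, chr8:11312777-11312854, plus strand, the strand of Col4a2).
Col4a1 and Col4a2, shared: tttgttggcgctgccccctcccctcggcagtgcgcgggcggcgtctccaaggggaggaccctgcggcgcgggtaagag
Summed over 12 genes, endothelial and pericyte markers, from the vessels that carry such membranes, stood at 1093 to 1273 CPM with isotype and 1351 to 1453 CPM with anti-CSF1R. The ranges did not overlap, and 5 of the 12 were higher in all 4 anti-CSF1R libraries, against 6.61% of all genes. In edgeR 0 passed the threshold, and 3 were higher at an unadjusted p under 0.05, against 5.26% of all genes. Of the 12 estimates 4 were below 0. The part of these markers in the type IV values was not tested.

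The other type IV chains, which replace the common ones in kidney, lung and other specialised membranes, were sparse. Col4a3 was higher in all 4 anti-CSF1R libraries, at 0.638, 0.401, 0.380 and 0.735 CPM in isotype 2, 3, 4 and 5 and 1.03, 0.964, 0.822 and 1.24 CPM in anti-CSF1R 7, 8, 9 and 10 (log2 fold change 0.90 ± 0.29 (SE), edgeR BH-adjusted p = 0.238). Against isotype 2 and 5 alone its estimate was 0.56 (edgeR BH-adjusted p = 0.390). Its partner Col4a4 stood at 0.644 to 1.21 CPM with isotype and 0.779 to 1.76 CPM with anti-CSF1R and Col4a5 at 1.47 to 1.98 CPM with isotype and 1.85 to 2.59 CPM with anti-CSF1R, both with overlapping groups. Col4a6 was listed at 0 in isotype 4 and at 0.0792 to 0.142 CPM in the other 7 libraries, and it was not tested. Of the collagens beside basement membranes, Col15a1 stood at 151 to 192 CPM with isotype and 149.8 to 197 CPM with anti-CSF1R, Col18a1, the source of endostatin, at 71.2 to 133 CPM with isotype and 74.4 to 89.8 CPM with anti-CSF1R, and Col7a1, the anchoring fibril of skin, at 3.73 to 5.37 CPM with isotype and 4.05 to 6.32 CPM with anti-CSF1R. All 3 overlapped. As for skin, 8 keratinocyte markers summed to 4.24 to 5.04 CPM with isotype and 3.95 to 4.74 CPM with anti-CSF1R, and 2 of them were at 0 in every library. The median log2 fold change of the 8 tested members of the class was 0.13, with 2 estimates below 0, and 0.19 against isotype 2 and 5 alone, when 0 were below 0.

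Type VI collagen, the beaded filament around most connective tissue cells, was carried by 3 abundant genes, which did not share a pattern. Col6a1 measured 1227, 2108, 1878 and 1400.3 CPM across the isotype libraries, against 1171, 1138, 1115 and 1183 CPM across the anti-CSF1R libraries. Col6a2 measured 1109.6, 2189, 1704 and 1276 CPM across the isotype libraries, against 1055, 1007, 996 and 1039 CPM across the anti-CSF1R libraries. In both, every anti-CSF1R library was below every isotype library, with isotype 2 only just above and isotype 3 and 4 far above. Their log2 fold changes were -0.52 ± 0.20 and -0.62 ± 0.22 (SE, edgeR BH-adjusted p = 0.278 and 0.275), and -0.19 and -0.22 against isotype 2 and 5 alone (0.309 and 0.225). Col6a3, the long remaining chain of the same trimer, stood at 1492 to 1779.6 CPM with isotype and 1558 to 1769.9 CPM with anti-CSF1R with overlapping groups (log2 fold change 0.049 ± 0.15 (SE), edgeR BH-adjusted p = 0.817).

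Of the sparse type VI chains that can take the place of Col6a3, Col6a5 rose in the tests that left out, or corrected for, isotype 3 and 4. It was chosen for full values after these were seen, as was Col23a1. Col6a5 measured 18.6, 8.78, 14.1 and 18.8 CPM across the isotype libraries, against 28.7, 28.4, 28.2 and 27.7 CPM across the anti-CSF1R libraries. The 4 anti-CSF1R libraries lay within 1 CPM of each other and above every isotype library, and isotype 3 and 4 were the lowest of all. The group values were 15.1 ± 4.73 CPM (SD, n = 4) with isotype and 28.3 ± 0.415 CPM (SD, n = 4) with anti-CSF1R, 1.87-fold higher, and did not pass on all libraries (log2 fold change 0.91 ± 0.23 (SE), edgeR BH-adjusted p = 0.140). Against isotype 2 and 5 alone the log2 fold change was 0.59 (edgeR BH-adjusted p = 0.00108) and with the offset for GC and length 0.69 (0.0345). DESeq2 gave 0.88 (adjusted p = 0.00919), and the range over 19 alternatives was an adjusted p of 0.00108 to 0.934. Its neighbour in the genome, Col6a6, went the other way at the edge of detection, with 0.254 to 0.561 CPM with isotype and 0 to 0.227 CPM with anti-CSF1R (log2 fold change -2.12 ± 0.67 (SE), edgeR BH-adjusted p = 0.241). The counts behind these were 18 to 34 per isotype library and 0 to 16 per anti-CSF1R library, and anti-CSF1R 10 had 0. DESeq2 called Col6a6 lower (adjusted p = 0.0275). Col6a4, the other neighbour, stood at 0.424 to 0.725 CPM with isotype and 0.363 to 0.607 CPM with anti-CSF1R. The 3 are related in sequence, and how multi-mapped reads were handled is not given in the sources used here. Col28a1, a beaded filament collagen of peripheral nerve, stood at 1.22 to 4.47 CPM with isotype and 4.17 to 5.16 CPM with anti-CSF1R, lowest in isotype 3 and 4.

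The transmembrane collagens included the gene with the lowest adjusted p of the 43. Col23a1, the type XXIII chain, measured 13.2, 14.8, 12.8 and 14.7 CPM across the isotype libraries, against 20.2, 20.3, 19.8 and 21.8 CPM across the anti-CSF1R libraries. All 4 anti-CSF1R libraries were above all isotype libraries, and isotype 3 and 4 did not stand apart from 2 and 5. The group values were 13.9 ± 1.04 CPM (SD, n = 4) with isotype and 20.5 ± 0.896 CPM (SD, n = 4) with anti-CSF1R, 1.48-fold higher (log2 fold change 0.56 ± 0.13 (SE), edgeR BH-adjusted p = 0.0968). It did not pass on all libraries but passed against isotype 2 and 5 alone (0.55, edgeR BH-adjusted p = 0.00681), with the offset (0.63, edgeR BH-adjusted p = 0.00953) and in DESeq2 (0.53, adjusted p = 9.75e-04), in a range of adjusted p from 9.75e-04 to 0.471 over 19 alternatives. Its log2 fold change stayed between 0.51 and 0.72 in these.

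**Figure D4:**
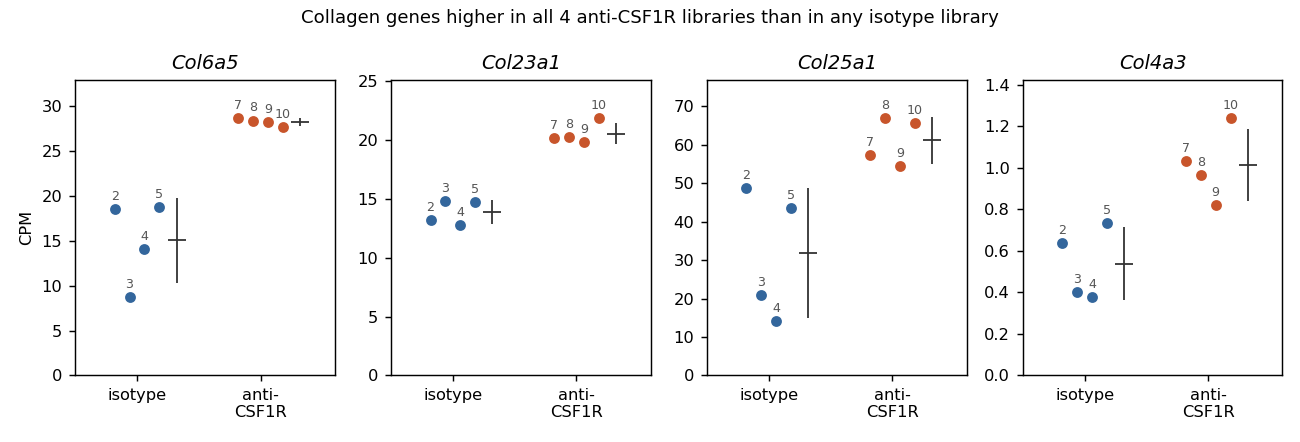
CPM of Col6a5, Col23a1, Col25a1 and Col4a3 in each library (numbered points) with the mean and SD of each group of 4 (bar at the right of the points). These are the 4 collagen genes whose anti-CSF1R values all lie above the isotype values, and isotype 3 and 4 are the lowest libraries in Col6a5, Col25a1 and Col4a3 but not in Col23a1.

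Col25a1, the type XXV chain, known in neurons, measured 48.8, 21.0, 14.1 and 43.6 CPM across the isotype libraries, against 57.5, 66.9, 54.6 and 65.7 CPM across the anti-CSF1R libraries. The groups did not overlap, but isotype 3 and 4 were far below isotype 2 and 5 (log2 fold change 0.94 ± 0.36 (SE), edgeR BH-adjusted p = 0.278). Against isotype 2 and 5 alone its estimate was 0.40 (edgeR BH-adjusted p = 0.0565). Its longest transcript had the lowest GC content of all tested collagen genes, 45.9%. Col13a1, which sits at cell junctions and is the most abundant gene of the class (106 CPM per kb), measured 324, 341, 385 and 326 CPM across the isotype libraries, against 325, 299.7, 335 and 334 CPM across the anti-CSF1R libraries. The groups overlapped (log2 fold change -0.091 ± 0.13 (SE), edgeR BH-adjusted p = 0.629). Col17a1, the hemidesmosome collagen of epithelia, was near the floor at 0.351 to 0.820 CPM with isotype and 0.370 to 0.496 CPM with anti-CSF1R. Muscle RNA was uneven between samples. The 14 skeletal muscle markers summed to 34.9 and 83.6 CPM in isotype 2 and 3, to 11.03 and 8.76 CPM in isotype 4 and 5, and to 8.88 to 9.23 CPM with anti-CSF1R. Once a muscle score entered the model, edgeR called 0 collagen genes and 0 genes in all, with 8 collagen genes at an unadjusted p under 0.05. The main fit had also called 0 collagen genes, with 144 genes in all. Calls over all genes fell to 0 as well when anti-CSF1R 7 or 8 was left out. The part of muscle RNA in the collagen values was not tested.

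The short-chain collagens, types VIII and X, build hexagonal networks. Their most abundant members per length were Col8a2 and Col10a1 (given above with cartilage). Col8a2, a type VIII chain of vessels and the eye's Descemet membrane, measured 143, 246, 245 and 155 CPM across the isotype libraries, against 178, 218, 199 and 172 CPM across the anti-CSF1R libraries. Isotype 3 and 4 were the highest and isotype 2 and 5 the lowest libraries, with the anti-CSF1R libraries between. Its estimate of -0.040 turned to 0.36 against isotype 2 and 5 alone (edgeR BH-adjusted p = 0.899 and 0.103). In its partner Col8a1 isotype 3 and 4 were the lowest libraries and isotype 2 the highest, at 60.8, 13.1, 28.4 and 36.8 CPM in isotype 2, 3, 4 and 5 and 29.6 to 42.6 CPM with anti-CSF1R. The GC content of the longest transcript was 59.1% for Col8a2 and 46.8% for Col8a1. Col26a1, grouped with them as other, stood at 8.71 to 26.1 CPM with isotype and 13.0 to 17.9 CPM with anti-CSF1R, and its estimate of -0.089 turned to 0.63 against isotype 2 and 5 alone (edgeR BH-adjusted p = 0.853 and 0.101).

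Chains that enter 1 trimer or 1 fibril can be compared within a library, where library size cancels. The log2 ratio of CPM was taken for 6 pairs and compared by a two-sided exact permutation test (70 assignments of the libraries), whose smallest p is 0.0286, with adjustment over the 6. None passed after adjustment, which a ratio alone at that smallest p could not do (exact permutation adjusted p = 0.171 for Col6a1 to Col6a2). Type I collagen protein holds 2 α1 chains for 1 α2 chain. RNA is another measure, taken here per length of the longest transcript and without a GC correction. On it the ratio of Col1a1 to Col1a2 stood near 1, at 0.921 to 1.05 over the 8 libraries. Its log2 ratio was 0.14 ± 0.082 with isotype and 0.085 ± 0.024 with anti-CSF1R (SD, n = 4 each; a difference of -0.053, exact permutation p = 0.286, adjusted p = 0.514). Col4a1 to Col4a2, the pair with overlapping promoter windows, was likewise narrow, at 1.31 to 1.62 per length (a difference of 0.045, exact permutation p = 0.600, adjusted p = 0.720). The log2 ratio of Col6a1 to Col6a2 was 0.15, -0.054, 0.14 and 0.13 in isotype 2, 3, 4 and 5 and 0.15, 0.18, 0.16 and 0.19 in anti-CSF1R 7, 8, 9 and 10. Every anti-CSF1R library was above every isotype library, by little except against isotype 3 (a difference of 0.078, exact permutation p = 0.0286, adjusted p = 0.171). Without isotype 3 the difference was 0.029.

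The other 3 pairs, like those above, spread more among isotype libraries than between the groups. The log2 ratio of Col3a1 to Col1a1, of soft to bone collagen, was -4.11, -4.53, -4.32 and -3.69 in isotype 2, 3, 4 and 5 and -4.05, -3.85, -3.95 and -4.09 in anti-CSF1R 7, 8, 9 and 10 (a difference of 0.18, exact permutation p = 0.343, adjusted p = 0.514). Isotype 5 had the most Col3a1 for its Col1a1 and isotype 3 the least. That of Col5a1 to Col5a2 was -0.62, 0.39, -0.075 and -0.29 in isotype 2, 3, 4 and 5 and -0.53, -0.53, -0.44 and -0.43 in anti-CSF1R 7, 8, 9 and 10 (a difference of -0.33, exact permutation p = 0.171, adjusted p = 0.514), and against isotype 2 and 5 alone the difference was -0.027. That of Col8a1 to Col8a2 ran from -4.23 in isotype 3 to -1.23 in isotype 2, with the anti-CSF1R libraries at -2.75 to -2.20 (a difference of 0.21, exact permutation p = 0.771, adjusted p = 0.771). The spread of single genes had the same shape: the coefficient of variation over 4 libraries was larger with isotype in 38 of 43 genes, with a median of 28.3% against 9.96% with anti-CSF1R. The same measure was not taken over all genes. Because isotype 3 and 4 stood apart across genes in general, it is not read as a trait of collagen genes.

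**Figure D5:**
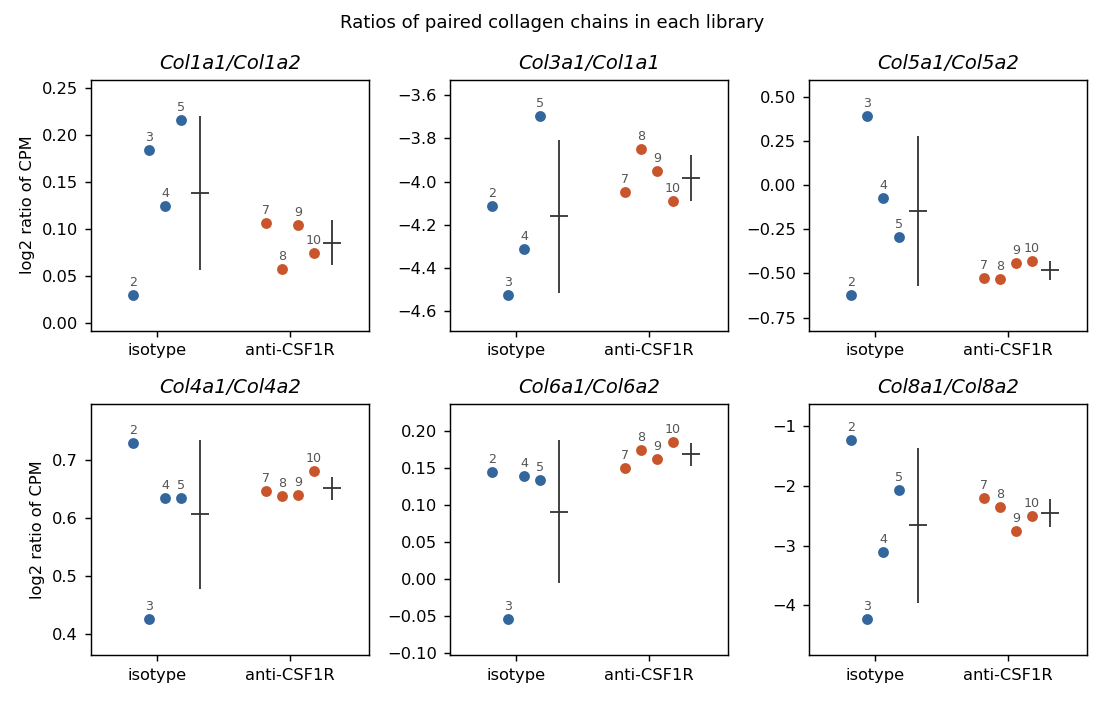
Log2 ratio of CPM of 6 chain pairs in each library (numbered points), with the mean and SD of each group of 4 (bar at the right of the points); the y axes differ and do not start at 0. The isotype points spread more widely than the anti-CSF1R points in all 6 pairs, and isotype 3 is the lowest library in Col3a1/Col1a1, Col4a1/Col4a2, Col6a1/Col6a2 and Col8a1/Col8a2.

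Genes whose products fold, trim and crosslink collagen gave 0 of 33 members past the threshold in edgeR. Their median log2 fold change was -0.21. At an unadjusted p under 0.05, 12 were lower and 0 higher, against 12.6% and 5.26% of all genes. The most abundant members were Serpinh1, the collagen chaperone HSP47, and P4hb, a subunit of prolyl hydroxylase. Serpinh1 stood at 2142 to 6124 CPM with isotype and 2211 to 2586 CPM with anti-CSF1R and P4hb at 906 to 2283 CPM with isotype and 893 to 1001 CPM with anti-CSF1R (edgeR BH-adjusted p = 0.278 and 0.278). Of 12 genes of collagen breakdown and uptake, 1 fell and 0 rose, with a median of -0.26. The gene that fell was Ctsk, from 1929.9 to 3245 CPM with isotype to 626 to 902 CPM with anti-CSF1R (log2 fold change -1.70 ± 0.23 (SE), edgeR BH-adjusted p = 0.0198). Of 12 collagen receptor genes, 1 fell and 0 rose, with a median of 0.13. It was Oscar, an osteoclast receptor that binds fibrillar collagen, at 36.1 to 51.7 CPM with isotype and 5.02 to 8.65 CPM with anti-CSF1R (log2 fold change -2.62 ± 0.23 (SE), edgeR BH-adjusted p = 0.00584). At the adjusted threshold the edgeR background is 0.822% of all genes lower and 0.0235% higher. Summed osteoclast markers, Ctsk and Oscar among them, stood at 5963 to 13795 CPM with isotype and 2278 to 3061 CPM with anti-CSF1R, and summed osteoblast markers at 12388 to 25584 CPM with isotype and 24845 to 29506 CPM with anti-CSF1R. The osteoclast ranges did not overlap. The osteoblast ranges did, and Spp1 alone, the gene of osteopontin, made up much of that sum, at 16451, 6049.6, 4844 and 15206 CPM across the isotype libraries. Of the 12 osteoblast markers 6 were highest of all libraries in isotype 3 and 4, as Col1a1 and Col1a2 were, and 6, Spp1 among them, were lowest there.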

How the data were processed

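The values are raw counts per gene symbol in the authors' deposited table. Per the labels' protocols, a stranded mRNA kit was given 1 µg of RNA and sequenced as 101 bp read pairs. STAR 2.7.10b and featureCounts 1.6.3, with GRCm38 and GRCm39, are named in the submitters' processing notes. The sources used here do not give the annotation, strand setting or build behind the counts. Of the counts from 1 to 10, 82.8 to 84.7% were even, as when both mates are counted, so fragments are about 2 times fewer.

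The main test was edgeR 4.0.16 in R 4.3.3 on the whole table (filterByExpr, 17028 genes; TMM; robust quasi-likelihood F-test; Benjamini-Hochberg over all genes, threshold 0.05). Log2 fold changes are anti-CSF1R minus isotype, and an SE is the fold change divided by the root of F. CPM uses TMM library sizes, with a prior count of 2 for log values. The fit was tested on simulated data. Length and GC come from the longest GENCODE M21 transcript of a symbol, which all 44 collagen genes and 94.0% of tested genes had. Alternatives were RLE, library size alone, collagen genes left out of library sizes, DESeq2 1.42.0, limma-voom (limma 3.58.1), 2 other filters, a muscle covariate, isotype 2 and 5 only, the GC and length offset (natural splines, 5 degrees of freedom), halved counts, and leaving out each library.

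Members, lists and tests were chosen with earlier results of these data known. Given in every library by rule are Col1a1, Col1a2, Col2a1, genes past the threshold and the 2 highest per length in each class. Outside that rule, Col3a1, Col9a2, Col11a1, Col11a2, Col24a1, Col4a3, Col6a5 and Col23a1 are also given in every library. Genes whose groups do not overlap are named with their ranges. The pathway rule names up to 4 called members, or the 2 highest by CPM. Replicate numbers are not shared between the groups.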

Additional observations from a re-analysis of the deposited data

Results flagged for a closer look

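In a group of 4 libraries a value was set aside for a closer look when its gap to the nearest other value, divided by the group's range, exceeded Dixon's 95% critical value. Over 43 genes and 6 ratios in 2 groups, 98 sets of 4 in all, this held for 8. Chance gives it in about 1 of 20 sets. Col16a1 stood at 1167 CPM in isotype 2 and at 1585 to 1656 CPM in the other 3 isotype libraries. Col9a1 stood at 359 CPM in isotype 5 and at 51.8 to 98.6 CPM in the other 3 isotype libraries. Col14a1 stood at 52.6 CPM in isotype 4 and at 32.4 to 35.8 CPM in the other 3 isotype libraries. Col19a1 stood at 0.144 CPM in anti-CSF1R 9 and at 0.0283 to 0.0396 CPM in the other 3 anti-CSF1R libraries. Col4a4 stood at 1.21 CPM in isotype 2 and at 0.644 to 0.679 CPM in the other 3 isotype libraries. Col6a3 stood at 1779.6 CPM in isotype 4 and at 1492 to 1533 CPM in the other 3 isotype libraries. Col6a4 stood at 0.725 CPM in isotype 3 and at 0.424 to 0.462 CPM in the other 3 isotype libraries. Col6a1/Col6a2 (log2 ratio) stood at -0.054 in isotype 3 and at 0.13 to 0.15 in the other 3 isotype libraries. The libraries concerned were isotype 2 (Col16a1, Col4a4), 3 (Col6a4, the Col6a1/Col6a2 ratio), 4 (Col14a1, Col6a3) and 5 (Col9a1), and anti-CSF1R 9 (Col19a1).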

How the results depend on the processing

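The count of collagen genes past the threshold was 0 lower and 0 higher in the main test and in 16 of 19 alternatives. It was 4 lower and 2 higher with DESeq2, 0 and 2 against isotype 2 and 5 alone, and 0 and 2 with the GC and length offset. Without each library in turn both counts ranged from 0 to 0, with 9 to 21 collagen genes at an unadjusted p under 0.05 in edgeR. Over all genes, calls ranged from 0 (without anti-CSF1R 7 or 8, or with the muscle covariate) to 777 (DESeq2), beside 144. Estimates of 15 genes turned sign in some alternative, none of them called there. These log2 values were Col4a1 -0.0041, Col15a1 -0.0030 and Col8a1 -0.0033 with DESeq2, Col4a1 -0.0041, Col15a1 -0.0030 and Col8a1 -0.0034 with RLE, Col5a2 0.022, Col11a1 0.10, Col4a2 0.15, Col6a4 0.10, Col13a1 0.072, Col8a2 0.15 and Col26a1 0.12 with library size alone and Col11a1 0.10 and Col26a1 0.041 with limma-voom. They were Col24a1 -0.18, Col5a3 0.056, Col12a1 -0.21, Col4a2 0.18, Col18a1 0.019, Col6a4 0.15, Col8a2 0.36, Col8a1 -0.47 and Col26a1 0.63 against isotype 2 and 5 alone, Col12a1 -0.10, Col4a2 0.053, Col6a3 -0.0056, Col13a1 0.18, Col8a2 0.20, Col8a1 -0.20 and Col26a1 0.31 with the offset and Col12a1 -0.034, Col4a2 0.047, Col6a4 0.25, Col8a2 0.054, Col8a1 -0.20 and Col26a1 0.36 with the muscle covariate. Ranges without each library were Col11a1 -0.21 to 0.17, Col4a1 -0.058 to 0.072, Col4a2 -0.15 to 0.066, Col15a1 -0.053 to 0.10, Col6a3 -0.0057 to 0.10, Col6a4 -0.22 to 0.12, Col8a2 -0.20 to 0.083, Col8a1 -0.25 to 0.41 and Col26a1 -0.30 to 0.23. The difference in chain ratios without each library was Col1a1/Col1a2 -0.090 to -0.027, Col3a1/Col1a1 0.055 to 0.33, Col5a1/Col5a2 -0.49 to -0.15, Col4a1/Col4a2 -0.015 to 0.086, Col6a1/Col6a2 0.029 to 0.10 and Col8a1/Col8a2 -0.32 to 0.68, and that of Col8a1/Col8a2 was -0.32 with the offset, against 0.21. Causes were not tested. Leaving out 1 library leaves ratios 35 assignments. A ratio alone cannot pass after adjustment there, nor on all 8 libraries, so only values are given. Depth limits Col4a6, Col6a6 and Col19a1, which had under 3 counts in some library. No paired analysis was possible because the groups share no replicate number.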

Other observations

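By RefSeq positions (GRCm38.p6, all 44 genes found), 8 pairs of collagen genes are neighbours on a chromosome, with 0 protein-coding genes between them. The pairs are Col9a1 with Col19a1, Col3a1 with Col5a2, Col4a3 with Col4a4, Col6a1 with Col6a2, Col4a1 with Col4a2, Col6a5 with Col6a6, Col6a4 with Col6a5, and Col4a5 with Col4a6. Of the 7 pairs with both members tested, 4 had estimates of the same sign, and the pairs Col4a1 with Col4a2, Col6a5 with Col6a6 and Col6a4 with Col6a5 did not. The signs of Col4a1, Col4a2 and Col6a4 turned in some alternatives. The widest gap within a pair was between Col6a6 and Col6a5, with log2 fold changes of -2.12 and 0.91, while Col9a1 and Col19a1 had -1.75 and -1.86. The 12 meningeal fibroblast markers summed to 841 to 1799.6 CPM with isotype and 1708 to 1783 CPM with anti-CSF1R, and the 8 tendon and suture markers to 1050.1 to 3519 CPM with isotype and 2061 to 2534 CPM with anti-CSF1R. Much of the first sum was Lum and much of the other Postn, and members of both lists went in different directions in isotype 3 and 4. Brain markers (8) summed to 13.9 to 15.9 CPM with isotype and 10.3 to 20.0 CPM with anti-CSF1R. Macrophage markers (12) summed to 568 to 998 CPM with isotype and 219.8 to 274 CPM with anti-CSF1R. Much of that isotype sum was Csf1r itself, at 238 to 549 CPM. Of the 12 macrophage estimates 9 were below 0 and 3, of Cd163, Mertk and Timd4, were above.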
